A study of Mus musculus with 4 samples.

Results

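Immediate-early genes are the first genes a cell transcribes after a stimulus, and 10 of them were followed here through the cells of mouse bone and bone marrow: Fos (ENSMUSG00000021250), Fosb (ENSMUSG00000003545), Jun (ENSMUSG00000052684), Junb (ENSMUSG00000052837), Jund (ENSMUSG00000071076), Egr1 (ENSMUSG00000038418), Atf3 (ENSMUSG00000026628), Ier2 (ENSMUSG00000053560), Nr4a1 (ENSMUSG00000023034) and Nr4a2 (ENSMUSG00000026826). They were chosen by symbol from the genes of the expression matrices, and all 10 were found in both matrices. The study paired single-cell RNA sequencing with an oligonucleotide-tagged antibody to the surface protein CD24 (CITE-seq), in 1 mouse of 6 months and 1 mouse of 24 months. Both mice are taken to be untreated and to carry INK-ATTAC. In this transgene a fragment of the p16 promoter drives a FLAG-tagged caspase 8. A drug can activate that caspase, so that p16-expressing cells can be removed. The paper's methods name this genotype for aged mice used in single-cell sequencing. They state neither the genotype of the young mouse nor the number of animals per CITE-seq library, so each library is read here as 1 mouse. Neither mouse received the drug, and no comparison with animals without the transgene was made. Femoral and tibial marrow was digested with Liberase at body temperature and the crushed bone with collagenase, blood lineage cells were depleted with magnetic beads, and live CD45-negative cells were sorted. Every cell had passed through an enzyme digestion, so levels before and after it cannot be told apart. Marrow and bone cells were combined afterwards, so enzyme and digestion time cannot be told apart from tissue of origin.

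FOS and JUN proteins pair to form AP-1, a transcription factor that binds the promoters and enhancers of genes for growth, matrix remodelling and inflammation. The immediate-early genes need no new protein to be switched on: serum response factor with its ELK partners, and CREB, already sit on their promoters and are activated by MAP kinases or cyclic AMP within minutes. Their mRNAs are short-lived, and phosphatases of the DUSP family and RNA-binding proteins of the ZFP36 family, themselves induced, end the response. In bone, Fos and Fosb act in osteoblasts and in osteoclast precursors, and NR4A receptors are induced by parathyroid hormone. The same genes are known to be induced when tissue is dissociated with enzymes at body temperature.

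Promoters are shown first, since CREB-type elements are a known route of induction of several members. Windows of 300 bases (250 before and 50 after the annotated start) were taken from RefSeq on GRCm38.p6, and 8 of the 10 members had an entry, while Egr1 and Ier2 had none. Shown are the 130 bases 5′ of the start, in the direction of transcription, for Fos, Fosb and Jun, the core of AP-1, and for the 2 NR4A receptors, whose levels varied widely between cell groups. Capitals mark TGACG or its reverse complement CGTCA (the core of a cyclic AMP response element), and in Jun the 8 letters TGACATCA, a match to TGACNTCA.
Fos, chr12:85473760-85473889, plus strand: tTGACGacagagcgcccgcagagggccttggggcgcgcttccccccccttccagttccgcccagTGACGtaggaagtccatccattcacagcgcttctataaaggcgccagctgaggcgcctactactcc
Fosb, chr7:19310046-19310175, minus strand: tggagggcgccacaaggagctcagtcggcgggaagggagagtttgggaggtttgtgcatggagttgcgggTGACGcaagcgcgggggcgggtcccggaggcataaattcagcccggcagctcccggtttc
Jun, chr4:95052223-95052352, minus strand: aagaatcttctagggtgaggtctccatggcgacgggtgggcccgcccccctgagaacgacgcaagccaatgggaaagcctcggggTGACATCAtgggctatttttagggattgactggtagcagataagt
Nr4a1, chr15:101266716-101266845, plus strand: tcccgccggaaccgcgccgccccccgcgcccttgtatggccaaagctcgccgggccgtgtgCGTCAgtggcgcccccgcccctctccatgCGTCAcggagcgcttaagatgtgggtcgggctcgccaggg
Nr4a2, chr2:57124004-57124133, minus strand: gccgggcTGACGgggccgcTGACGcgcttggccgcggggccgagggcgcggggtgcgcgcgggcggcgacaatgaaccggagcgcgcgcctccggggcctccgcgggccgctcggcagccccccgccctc

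Searched on both strands, TGACG was found in the windows of 6 of the 8 members (Atf3, Fos, Fosb, Junb, Nr4a1 and Nr4a2), while 20.8% of all 32851 RefSeq windows of the same length held it. TGACNTCA was in the window of Jun alone of the members and in 8.83% of all windows. It overlaps the full 8-letter element TGACGTCA, which 1.79% of all windows and 0 of the 8 member windows held. The AP-1 element TGANTCA (7.81% of all windows) and the CArG box bound by serum response factor (1.63%) were in 0 of the 8 member windows, and TATAAA was in those of Fos, Junb and Nr4a2 (13.6% of all windows). The motifs were chosen after the windows had been seen, and a match describes letters only. Bases outside these windows were not searched, so a motif without a match here may lie further from the start.

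After barcodes with under 200 genes or over 20% mitochondrial UMIs were left out, 10063 young cells with 81076421 UMIs (median 6385 per cell) and 5607 old cells with 66702846 UMIs (median 9711) were used. A UMI, or unique molecular identifier, counts 1 captured mRNA molecule. The 2 libraries shared 19 of their kept barcodes. Cells were placed in groups by the share of their UMIs that came from marker genes, so each group name means a likeness to that cell type. The limits of that rule were set after the marker levels had been seen. In all, 11 groups with at least 30 cells in each mouse were used. The 7 mesenchymal groups (Lepr stromal cells, which are the Cxcl12-rich reticular cells of marrow, osteoblasts, chondrocytes, fibroblasts, tendon cells, joint lining cells, and pericytes or smooth muscle cells) held 6907 young and 3630 old cells. Erythroid cells, neutrophils, B-lineage cells and megakaryocytes made up the blood groups, and cells with markers of several groups or of none were left out. Ptprc, the gene of CD45, gave a UMI in 0.767% of young and 0.496% of old mesenchymal cells but in 89.7% and 93.9% of neutrophils, cells that the depletion and the sort were meant to remove.

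Levels are given in CPM, the UMIs of a gene over all UMIs of the same group and mouse on the usual counts-per-million scale, and all values below are given in the order young, old. Over all mesenchymal cells the 10 genes held 11562 and 10608 CPM, that is, over 1% of all captured mRNA. Over the 11 groups, that sum was highest in pericytes or smooth muscle cells of the young mouse (21125 CPM) and in chondrocytes of the old mouse (21034 CPM), and lowest in erythroid cells (1135 and 913 CPM). Each gene is compared below between groups and not with another gene.

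Fos, the founding AP-1 partner, ranged over the 7 mesenchymal groups of the young mouse from 1402 CPM in joint lining cells to 5448 CPM in pericytes or smooth muscle cells, with a median of 2564 CPM. In the old mouse the range was 1922 CPM in osteoblasts to 5566 CPM in chondrocytes, with a median of 2734 CPM. Among the blood groups it was 2626 and 1929 CPM in neutrophils, 227 and 323 CPM in megakaryocytes, 99.2 and 93.4 CPM in erythroid cells and 95.9 and 47.2 CPM in B-lineage cells. Neutrophils thus lay inside the mesenchymal range, and the other 3 blood groups lay below every mesenchymal group in both mice. Lepr stromal cells, osteoblasts and fibroblasts lay close together (2564 and 1978 CPM, 2512 and 1922 CPM and 2405 and 2734 CPM), and their order differed between the mice.

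Fosb, the close relative that also gives the shorter ΔFosB protein, which the 3′ reads do not separate, spanned 384 CPM in joint lining cells to 1312 CPM in pericytes or smooth muscle cells, with a median of 1094 CPM in the young mouse. In the old mouse it spanned 657 CPM in osteoblasts to 1655 CPM in chondrocytes, with a median of 898 CPM. It was 319.6 and 219 CPM in neutrophils, 134 and 139 CPM in megakaryocytes, 61.2 and 42.5 CPM in B-lineage cells and 32.1 and 35.3 CPM in erythroid cells. All 4 blood groups lay below every mesenchymal group of both mice, unlike for Fos.

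The JUN genes encode the other partner in AP-1, and JUND is the member known to be made most evenly in resting cells. Jun spanned 724 CPM in joint lining cells to 2997 CPM in pericytes or smooth muscle cells, with a median of 2359 CPM in the young mouse, and 1244 CPM in joint lining cells to 3373 CPM in chondrocytes, with a median of 2274 CPM in the old. Megakaryocytes (1137 and 969.7 CPM) held more of it than neutrophils (734 and 753 CPM), against 724 and 1244 CPM in joint lining cells. Junb, which can hold back Jun, was highest in pericytes or smooth muscle cells (3974 and 3278 CPM) and chondrocytes (3448 and 2741 CPM), and neutrophils (1960.1 and 1966 CPM) exceeded Lepr stromal cells (1577 and 1443 CPM). Jund varied least: its highest mesenchymal level was 2.22 and 2.26 times its lowest, and in B-lineage cells it stood at 1016 and 1052 CPM, close to its level in osteoblasts (1027 and 949 CPM).

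Egr1, a zinc finger factor induced through serum response factor, spanned 912 CPM in joint lining cells to 2281 CPM in chondrocytes, with a median of 1616 CPM in the young mouse, and 967 CPM in osteoblasts to 2424 CPM in chondrocytes, with a median of 1468 CPM in the old. Ier2, a nuclear regulator of the same early wave, was highest in chondrocytes (1031 and 1009 CPM) and lowest among mesenchymal groups in joint lining cells (267 and 263 CPM). Both genes were low in erythroid cells, where Egr1 was 80.1 and 50.3 CPM and Ier2 84.2 and 65.3 CPM.

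Atf3, a stress-induced member of the ATF/CREB family, and the NR4A genes, which encode orphan nuclear receptors, were the most uneven members. Atf3 went from Lepr stromal cells (93.0 and 104 CPM), the lowest mesenchymal group, through fibroblasts (595 and 603 CPM) to pericytes or smooth muscle cells (1514 and 1187 CPM), the highest, with neutrophils at 501 and 804 CPM. Nr4a1 was low in osteoblasts (104 and 76.8 CPM), joint lining cells (99.8 and 149.7 CPM) and Lepr stromal cells (138 and 147 CPM), and highest in pericytes or smooth muscle cells (1033 and 1192 CPM). Nr4a2 went from 15.1 and 7.25 CPM in Lepr stromal cells to 427 and 577 CPM in chondrocytes, a 28.2-fold range in the young and a 79.6-fold range in the old mouse. The Lepr stromal values rest on 226 and 96 UMIs, with 95% counting intervals of 13.2 to 17.2 and 5.87 to 8.85 CPM. Intervals here cover counting error only.

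**Figure D1:**
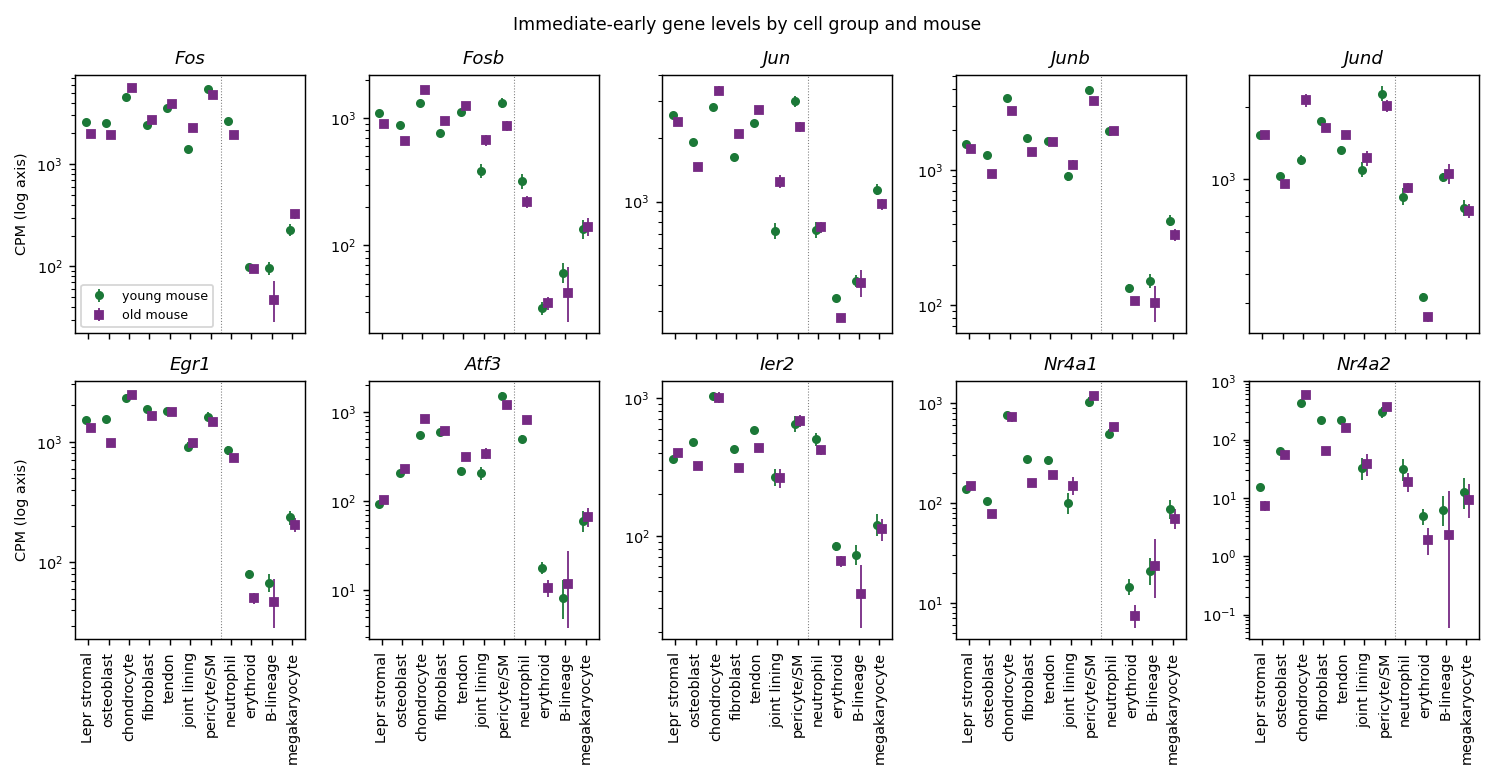
Level of each of the 10 genes (CPM, log axis) in 7 mesenchymal and 4 blood cell groups, with 1 point per mouse and 95% counting intervals; a dotted line parts mesenchymal from blood groups. Neutrophils stand above the other blood groups for Fos (2626 and 1929 CPM against 99.2 and 93.4 CPM in erythroid cells), and Jund is the flattest member.

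The first comparison asked whether mesenchymal cells as a whole carried more immediate-early mRNA than the blood cells of the same mouse. All 10 members passed the filter on low counts and all 10 were higher in the mean of the mesenchymal groups than in the mean of the blood groups (edgeR's quasi-likelihood test on 22 sums, mouse as a block, adjusted p under 0.05). Of all 13361 genes tested, 34.1% were called higher and 26.1% lower. The log2 difference was 3.28 (SE 0.26, adjusted p = 3.46e-09) for Nr4a2, 3.22 (SE 0.15, adjusted p = 5.49e-12) for Fos, and 3.06 (SE 0.14, adjusted p = 6.55e-12) for Fosb. The size for Nr4a2 is uncertain, since its blood counts were low. They were 22 and 31 UMIs in neutrophils, 42 and 15 in erythroid cells, 12 and 10 in megakaryocytes and 13 and 1 in B-lineage cells. For the next 2 genes the difference was as follows. The log2 difference was 2.92 (SE 0.12, adjusted p = 9.20e-13) for Egr1 and 2.57 (SE 0.17, adjusted p = 4.28e-10) for Atf3. Junb (2.08), Nr4a1 (1.84), Ier2 (1.61) and Jun (1.55) followed, and Jund had the smallest difference at 0.83 (SE 0.11, adjusted p = 2.86e-06). The median over the 10 was 2.33, against 0.19 over all genes tested. With total UMIs in place of TMM scaling the median of all genes moved to 0.52 and the share of calls that were higher from 56.6% to 71.2%, and all 10 members were still called. The test has 10 residual degrees of freedom from 2 mice, and the block removes the mean difference between them. Its p-values therefore measure how unevenly the cell groups differed between these 2 animals. They do not measure the spread over other animals.

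Neutrophils were the exception among the blood groups, as described for Fos. Leaving them out of the blood mean was chosen after the levels had been seen and raises the differences by construction, so the values only restate that neutrophils were high: the difference was 4.45 for Fos, 4.02 for Atf3 and 1.16 for Jund, with all 10 called higher beside 36.6% of all genes higher and 28.7% lower. Set against the mean of the other 3 blood groups, a comparison also chosen for these levels and so a description, neutrophils were higher in all 10 members, where 36.5% of all genes were called higher and 21.6% lower. The log2 difference was 5.80 for Atf3, 5.20 for Nr4a1, 4.93 for Fos and 4.27 for Junb. For single groups this did not hold throughout: megakaryocytes held more Jun than neutrophils, and B-lineage cells more Jund (1016 and 1052 CPM against 843 and 916 CPM). The smallest differences from the mean were Jun (1.33) and Jund (1.34), which fell to 0.53 each without TMM factors and were still called, while the median of all genes went from 0.44 to -0.35 and the share of calls that were higher from 62.9% to 42.3%. Neutrophils also had the fewest UMIs per cell (median 2645 and 4018).

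Erythroid cells had the lowest summed level and were used as a rough measure of free RNA in the droplets. They were picked by that level and are not a matched background. Thinning dilutes free RNA more in these deeper cells than in shallower ones. What part of their own member UMIs was free RNA was not tested. With every cell thinned to 2000 UMIs, Fos was found in 11.1% (95% exact interval 8.17 to 14.6%) of young and 9.28% (95% exact interval 6.43 to 12.8%) of old erythroid cells. In Lepr stromal cells it was found in 52.2% (95% exact interval 50.2 to 54.2%) and 48.0% (95% exact interval 45.5 to 50.6%), before thinning in 60.1% and 63.8%, and in fibroblasts in 71.7% and 74.5%. Median depth before thinning was 15837 and 16257 UMIs in erythroid and 4988 and 8238 in Lepr stromal cells. Fos in B-lineage cells (12.5% and 19.6%) had intervals that overlapped those of erythroid cells, and is not read as expression. Jund in B-lineage cells was not at that level: 67.5% and 71.7% of them had a UMI, against 36.5% and 34.5% of erythroid cells. For Nr4a2 the share in Lepr stromal cells was 2.08% (95% exact interval 1.54 to 2.73%) and 1.14% (95% exact interval 0.666 to 1.82%), and that in erythroid cells 0.252% (95% exact interval 0.00638 to 1.40%) and 0.580% (95% exact interval 0.0703 to 2.08%), so that in the old mouse the 2 intervals overlapped. Nr4a2 of old Lepr stromal cells is therefore not told from background at this depth, and the size of a fold against it is uncertain. Thinning left out 770 young and 496 old cells that held fewer than 2000 UMIs.

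Within a group the 10 genes were spread unevenly over cells. At 2000 UMIs per cell, a Lepr stromal cell of the young mouse held a median of 7 member UMIs, with quartiles at 1 and 37 and a highest value of 155, and 13.0% of the cells held none. In the old mouse the median was 6, the quartiles 2 and 26 and the highest value 194, with 9.46% of cells at 0. The tenth of Lepr stromal cells with the most member UMIs carried 39.7% and 44.7% of them. Low and high cells thus stood side by side under the same label. Fibroblasts were more even, with medians of 18 and 17, lower quartiles of 8 and 8 and 0.688% and 1.26% of cells at 0, with upper quartiles of 34 and 36, close to the Lepr stromal value in the young mouse and above it in the old. Osteoblasts had medians of 16 and 8, pericytes or smooth muscle cells 47 and 29, chondrocytes 31.5 and 33.5, and erythroid cells 1 and 1. The share of cells at 0 among Lepr stromal cells lay between that of fibroblasts and that of erythroid cells (34.5% and 39.1%).

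**Figure D2:**
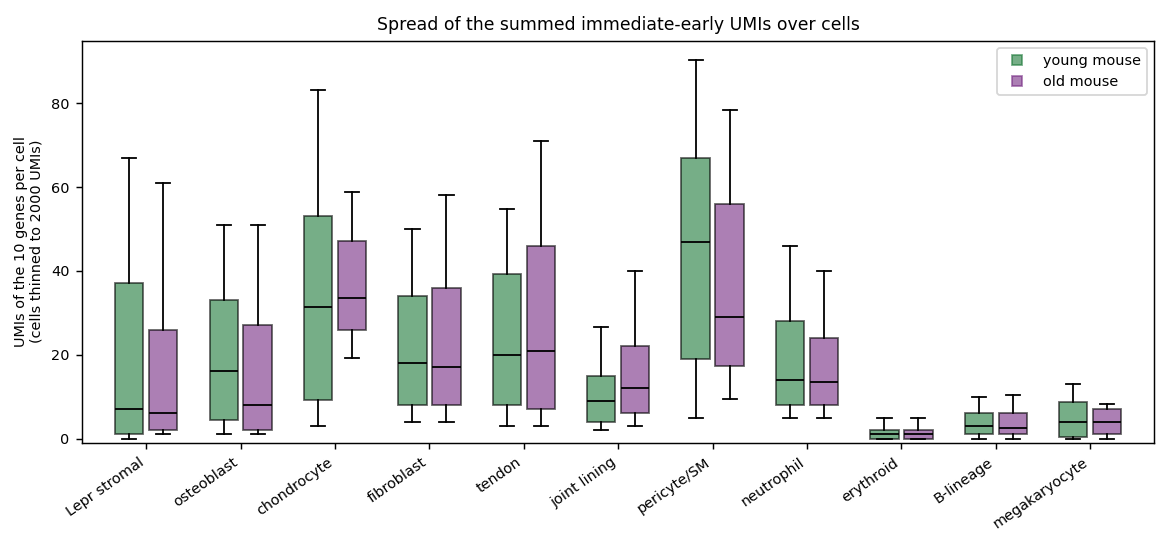
Summed UMIs of the 10 genes per cell after thinning to 2000 UMIs, by cell group, with the median, quartiles and 10th and 90th percentiles for the young and the old mouse. The Lepr stromal boxes reach from 1 to 37 and from 2 to 26 around medians of 7 and 6, and the fibroblast boxes from 8 to 34 and from 8 to 36 around higher medians.

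Cells that were high for 1 member tended to be high for others. Over 2409 young Lepr stromal cells all 45 pairs of members had a positive Spearman correlation, with a median of 0.404, and over 1490 old ones the median was 0.402. The closest pair was Fos and Jun (0.804 and 0.743), while Jun and Nr4a2 stood near 0 (0.0356 and 0.0108). At this depth only 50 young and 17 old Lepr stromal cells had an Nr4a2 UMI, so its correlations there rest on few detections. Medians were 0.305 and 0.285 in fibroblasts, 0.347 and 0.394 in osteoblasts, and 0.156 and 0.0924 in neutrophils. Cells of a group and mouse share 1 library, so these correlations are descriptions.

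The summed member UMIs of a cell were set against other summed lists in the same cells. In Lepr stromal cells, other immediate-early genes gave a Spearman correlation of 0.747 and 0.692, and feedback inhibitors 0.721 and 0.681. Heat shock genes, which encode chaperones, gave 0.700 and 0.541. The same held for fibroblasts (0.596 and 0.534 for heat shock genes) and osteoblasts (0.598 and 0.628), but in neutrophils the heat shock value was 0.122 and 0.0640. Secondary response and AP-1 target genes gave 0.303 and 0.252 in Lepr stromal cells and 0.455 and 0.337 in fibroblasts, but -0.0290 and 0.181 in osteoblasts. Values nearer to 0 in Lepr stromal cells were those for the UMIs of the cell (0.0649 and 0.0357), its mitochondrial percentage (-0.0978 and -0.0603) and its CD24 antibody count (-0.0520 and -0.102). Genes used as references gave 0.0295 and 0.0113, and the kinases and factors that act upstream, such as Srf and Creb1, gave -0.0227 and -0.0194. What part a general stress response had in the shared cell-to-cell spread was not tested.

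**Figure D3:**
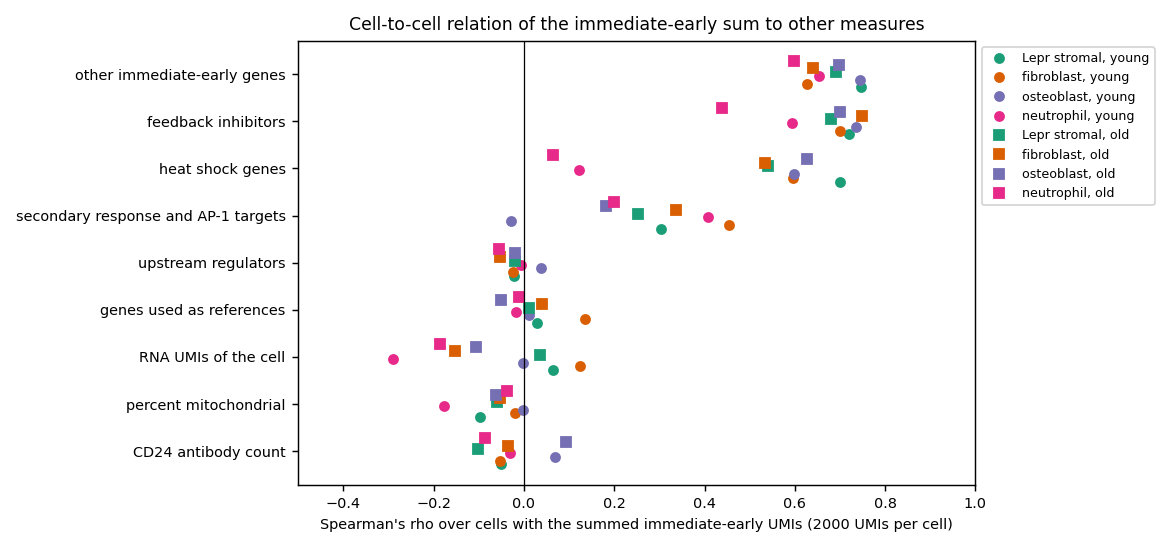
Spearman correlation over cells between the summed member UMIs and other measures of the same cell, for Lepr stromal cells, fibroblasts, osteoblasts and neutrophils of each mouse at 2000 UMIs per cell. Other immediate-early genes and feedback inhibitors lie far to the right, upstream regulators and antibody counts near 0, and heat shock genes are high in the 3 mesenchymal groups and near 0 in neutrophils.

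In both mice the summed level of the members was lowest in the mesenchymal cells with the highest mitochondrial percentage, without an even order below that. The sum was 11588 and 10589 CPM in cells with under 5% mitochondrial UMIs, 11481 and 11539 CPM in those with 5 to 10% and 10062 and 9057 CPM in those with 10 to 20%, so it was highest in the middle range in the old mouse. From the lowest to the highest range members went different ways, Fos from 2617 and 2459.9 CPM to 1901 and 1548 CPM and Fosb from 895 and 877 CPM to 1312 and 1202 CPM.

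The second comparison set each mesenchymal group against Lepr stromal cells, the largest marrow stromal group, in the same fit. Of the 60 pairs of member and group, 26 were called, 24 higher and 2 lower than in Lepr stromal cells. Over all genes, 12.2% to 18.9% were called higher and 13.4% to 18.1% lower, depending on the group. The counts in osteoblasts, fibroblasts and joint lining cells were near those shares. Atf3 and Nr4a2 were higher in all 6 other mesenchymal groups, and no other member was called in more than 3. Each of the 26 differences had the same direction in both mice taken singly. They were selected in a fit of these same 2 mice, so the shared direction largely follows from the selection.

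Chondrocytes stood apart with 8 members higher, beside 15.2% of all genes called higher and 14.2% lower. The log2 differences were 5.92 (SE 0.45, adjusted p = 2.17e-08) for Nr4a2, 3.13 (SE 0.33, adjusted p = 1.15e-06) for Atf3, 2.74 (SE 0.33, adjusted p = 4.26e-06) for Nr4a1, 1.78 (SE 0.24, adjusted p = 1.89e-05) for Ier2 and 1.52 (SE 0.29, adjusted p = 5.43e-04) for Fos. Junb (1.39), Egr1 (1.11) and Fosb (0.93) were called too, Fosb not in cells thinned to 2000 UMIs (0.66) and not without TMM factors (0.57). Jun (0.67, SE 0.26, adjusted p = 0.0645) and Jund (0.47, SE 0.24, adjusted p = 0.157) missed the threshold. The old value rests on 42 chondrocytes and the young on 149.

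Pericytes or smooth muscle cells had 6 members higher, beside 12.9% of all genes higher and 14.4% lower. These were Nr4a2 at 5.10 (SE 0.44, adjusted p = 1.15e-07), Atf3 at 3.93 (SE 0.35, adjusted p = 1.36e-07), Nr4a1 at 3.10 (SE 0.33, adjusted p = 1.44e-06) and Junb at 1.39 (SE 0.24, adjusted p = 2.72e-04), with Fos (1.29) and Ier2 (0.94). Fosb (0.26, SE 0.28, adjusted p = 0.557), Egr1 (0.26), Jun (0.21) and Jund (0.63) did not pass. Fos and Fosb, neighbours in the AP-1 family, thus differed in whether they passed, and the difference between them was not tested.

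Fibroblasts had 2 members higher, beside 18.9% of all genes higher and 18.1% lower: Nr4a2 at 3.78 (SE 0.41, adjusted p = 7.77e-07) and Atf3 at 2.80 (SE 0.33, adjusted p = 2.01e-06). The same 2 were higher in osteoblasts, Nr4a2 at 2.69 (SE 0.40, adjusted p = 3.78e-05) and Atf3 at 1.39 (SE 0.31, adjusted p = 0.00188), where 17.6% of all genes were higher and 17.1% lower. In both groups the estimates for the 5 Fos and Jun genes lay within 0.38 of Lepr stromal cells on the log2 scale, with SE up to 0.28. Jund in osteoblasts was called lower in 1 of the 9 settings, and its estimate reached -0.63. As CPM without TMM factors, old osteoblasts alone gave -0.72 for Jun, -0.69 for Jund and -0.62 for Junb. Young osteoblasts gave -0.43, -0.57 and -0.275. Tendon cells had 4 members higher beside 16.8% of all genes higher and 15.8% lower. These were Nr4a2 at 4.25 (SE 0.42, adjusted p = 4.51e-07), Atf3 at 1.58 (SE 0.32, adjusted p = 7.63e-04), Fos at 0.87 (SE 0.29, adjusted p = 0.0262) and Nr4a1 at 0.85 (SE 0.31, adjusted p = 0.0433). Fos was not called there without TMM factors (0.71), and Nr4a1 was not called with a 10% mitochondrial limit (0.87), without TMM factors (0.69) or by the stricter marker rule (0.84).

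Joint lining cells, the Prg4-expressing cells that line the joint surface, were the one group with members called lower in the main fit. Over all genes, 12.2% were higher and 13.4% lower. Jun was lower at -1.20 (SE 0.27, adjusted p = 0.00263) and Fosb at -0.78 (SE 0.28, adjusted p = 0.0489), while Nr4a2 was higher at 1.83 (SE 0.53, adjusted p = 0.0166) and Atf3 at 1.59 (SE 0.32, adjusted p = 0.00128). Fosb lost its call in cells thinned to 2000 UMIs (-0.80) and with DESeq2 (-0.73), and Nr4a2 lost it when thinned (1.66) and under the stricter marker rule (1.31). The group held 54 and 31 cells, with a median depth of 13774 and 20146 UMIs.

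Without TMM factors the calls over all genes in these 6 comparisons shifted towards lower: the share that were higher went from 50.7% to 31.9% for osteoblasts, 51.7% to 29.8% for chondrocytes, 51.1% to 36.4% for fibroblasts, 51.6% to 39.4% for tendon cells and 47.6% to 36.9% for joint lining cells, and from 47.1% to 40.2% for pericytes or smooth muscle cells. Of the 6, chondrocytes had the largest shift in the median of all genes, from -0.08 to -0.45.

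**Figure D4:**
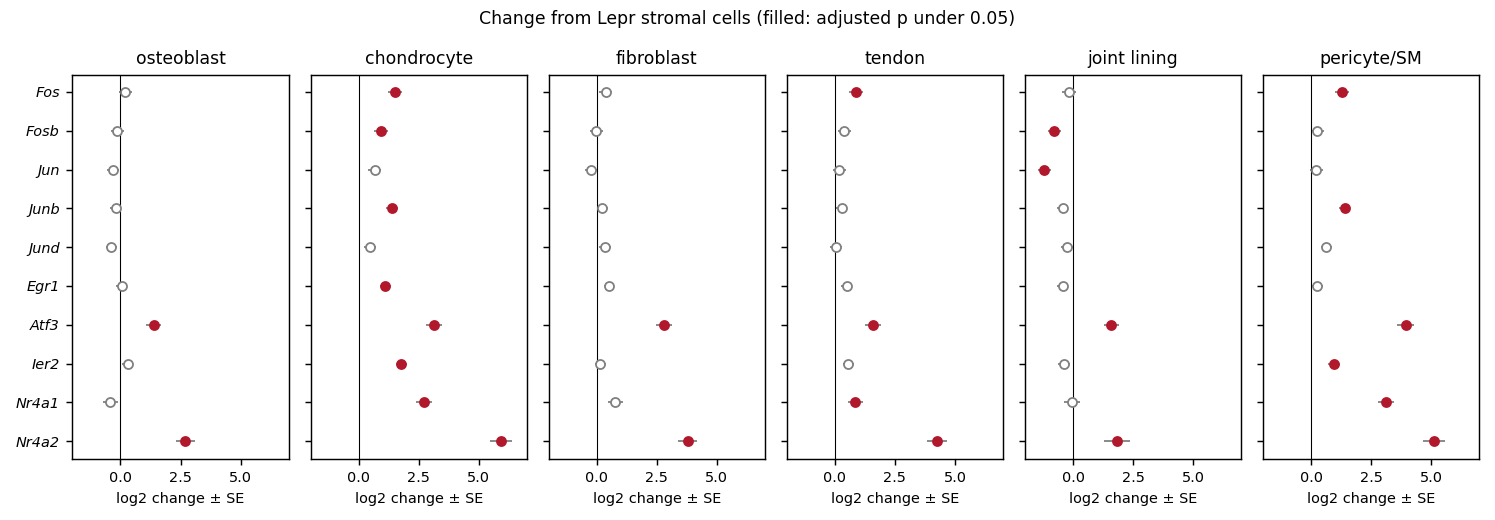
Log2 difference (± SE) of each of the 10 genes from Lepr stromal cells in 6 other mesenchymal groups, with filled points for adjusted p under 0.05 by edgeR. Atf3 and Nr4a2 are filled in all 6 panels, and the joint lining panel is the one with filled points to the left of 0 (Jun -1.20, Fosb -0.78).

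Across the 22 sums, members followed one another to different degrees, from a Pearson r of log2 CPM of 0.674 for Jund and Ier2 to 0.981 for Fos and Egr1. Of 9109 genes with at least 10 CPM on average, those outside all lists whose profile was most like the mean of the members included Mbnl2 (r = 0.953), Gadd45g (0.924), Ubtd1 (0.922), Hip1 (0.916), Sowahc (0.916), Trpc1 (0.916) and Kif1b (0.914). Mbnl2 encodes a splicing regulator and Gadd45g a growth arrest protein. Of the listed genes, Maff (0.949), Ier3 (0.930) and Socs3 (0.928) came next after Mbnl2. The median r was 0.797 for other immediate-early genes, 0.766 for feedback inhibitors, 0.459 for secondary response genes, 0.432 for heat shock genes and 0.280 for upstream regulators, against 0.062 for all genes ranked. The sums share 2 libraries and group markers, so r is a description.

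The rest of the pathway was followed in lists of genes. For mesenchymal against blood groups, 34.1% of all genes were called higher and 26.1% lower. In the comparison of mesenchymal with blood groups, 14 of 18 other immediate-early genes tested were higher, with a median log2 difference of 1.65 against 0.19 over all genes. The 4 not called were Btg2, Per1, Sik1 and Fosl1. Those higher included Ier5l at 4.94 (SE 0.47, adjusted p = 8.89e-08), Klf4 at 3.73 (SE 0.20, adjusted p = 2.29e-11), Egr2 at 3.29 (SE 0.24, adjusted p = 1.25e-09) and Nr4a3, the third NR4A receptor, at 2.66 (SE 0.44, adjusted p = 3.65e-05). Of the 13 feedback inhibitors 10 were higher and 3 lower: the Sprouty genes Spry4 (4.69, SE 0.58, adjusted p = 1.83e-06) and Spry2 (2.73), which restrain receptor tyrosine kinases, and the cytokine brake Socs3 (3.48) were higher, and the phosphatase Dusp2 was lower at -4.87 (SE 1.00, adjusted p = 4.09e-04). The others that were lower, named here after their values were seen, were Tnfaip3 (-0.81) and Dusp5 (-0.59), and Dusp5 was not called without TMM factors. Tnfaip3 was 4.49 higher in neutrophils than in the other blood groups. With neutrophils left out of the blood mean, a choice made after the levels had been seen, 18 of 18 other immediate-early genes were higher. Feedback inhibitors then had 11 higher and 1 lower.

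Upstream regulators were mixed, with 5 of 13 higher, 2 lower and a median of 0.11. The share that was higher was near the 34.1% of all genes, as it was for the heat shock genes below. The SRF cofactor Mrtfb (1.83, SE 0.17, adjusted p = 2.53e-08) and Elk1 (0.80) were higher, as were Crtc2 (0.66), Mapk8 (0.40) and Mapk3 (0.30), and the lower ones included the kinase Mapk14 (-1.53, SE 0.12, adjusted p = 2.57e-09). Secondary response and AP-1 target genes were higher in 8 of 14 and lower in 1 (the chemokine Cxcl2, -1.61), and the higher ones included the metalloprotease inhibitor Timp1 (5.31, SE 0.44, adjusted p = 8.46e-09), the growth factor Hbegf (4.32) and the chemokine Cxcl1 (2.81). Cxcl2 was 9.10 higher in neutrophils than in the other blood groups. With neutrophils left out of the blood mean, this list had 10 higher and 0 lower of 14. Heat shock genes split into 5 higher and 4 lower of 12, and the 4 with the largest difference were higher: Hspb1 (2.84, SE 0.17, adjusted p = 9.04e-11), Bag3 (2.52), Hspa1a (1.40) and Dnajb4 (1.01). The 4 lower ones were Hsp90aa1 (-0.91), Hspd1 (-0.58), Hspe1 (-0.52) and Hspa8 (-0.42). All 7 genes used as references were lower with TMM, among them Hprt (-1.24, SE 0.09, adjusted p = 2.15e-09), Tbp (-0.93), Ppia (-0.81) and Rplp0 (-0.79), with a median of -0.79. Without TMM factors Sdha (0.00) and Eef1a1 (0.05) were no longer lower and 5 of the 7 were called lower. Heat shock genes then had 7 higher and 1 lower.

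In neutrophils against the other blood groups, 36.5% of all genes were called higher and 21.6% lower. There, 17 of 18 other immediate-early genes were higher (16 without TMM factors) and Myc was not called. All 13 feedback inhibitors were higher (12 without TMM factors). Heat shock genes split into 3 higher (Dnaja1 1.51, Bag3 1.29 and Hspa1b 0.80) and 5 lower (Hspe1 -2.85, Hspd1 -2.49, Hsp90aa1 -0.77, Hspa8 -0.76 and Dnajb4 -0.57) of 12, named after their values were seen, and into 1 higher and 7 lower without TMM factors. Against Lepr stromal cells, chondrocytes had 14 of the 18 other immediate-early genes higher and the other 4 not called. The median was 1.66 against -0.08 over all genes, of which 15.2% were called higher.

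Old and young were compared within each cell group as a ratio of CPM, with no test. Each age was 1 library, and a difference between ages cannot be told apart from one between these animals or libraries. Of the 110 pairs of member and group, 109 had at least 20 UMIs, 0 were at least 2-fold higher in the old mouse and 4 at least 2-fold lower. Over all genes and groups, 3.29% of pairs were at least 2-fold higher and 5.05% lower, so a count of 4 of 109 is near that background. Summed over mesenchymal cells, 9 of the 10 members had an old to young ratio between 0.735 (Nr4a1) and 1.04 (Jun).

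The tenth, Nr4a2, was 0.446 (95% counting interval 0.426 to 0.468), and fibroblasts held 4636 of its 6677 UMIs in the young and 967 of 2436 in the old mouse. In fibroblasts Nr4a2 stood at 217 CPM in the young and 63.5 CPM in the old mouse, a ratio of 0.293 (95% counting interval 0.273 to 0.314), which stayed between 0.287 and 0.368 under the alternatives. The share of fibroblasts with an Nr4a2 UMI, thinned, was 15.3% (95% exact interval 13.9 to 16.8%) and 7.39% (95% exact interval 5.92 to 9.10%). Nr4a1 in fibroblasts had a ratio of 0.577 (95% counting interval 0.549 to 0.605), while Fos (1.14) and Jun (1.28) were higher in old fibroblasts. Chondrocytes went the other way for Nr4a2, at 1.35 (95% counting interval 1.17 to 1.56). Fibroblasts of the 2 mice differed in depth (median 7643 and 12580.0 UMIs), and the ratio in cells thinned alike is within the range given.

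The other 3 pairs did not hold under other processing. Nr4a2 in Lepr stromal cells had a ratio of 0.479 (95% counting interval 0.373 to 0.611), which was 0.703 with called doublets removed and 0.600 in thinned cells. Nr4a2 in erythroid cells had 0.389 (95% counting interval 0.200 to 0.715), from 42 and 15 UMIs, and 0.963 without doublets. Fos in B-lineage cells had 0.492 (95% counting interval 0.294 to 0.780), and 1.01 in thinned cells. Pairs at least 2-fold higher in the old mouse appeared only under other processing: Fosb (2.42) and Nr4a1 (2.27) in joint lining cells and Atf3 in tendon cells (2.04) when thinned, and Atf3 in neutrophils (2.31) with TMM-scaled totals. Other processing also took further pairs past 2-fold lower. Their lowest ratios were 0.363 for Atf3 and 0.449 for Nr4a1 in erythroid cells, and for Ier2 0.4415 in B-lineage cells and 0.476 in megakaryocytes. Within 2-fold, the AP-1 genes were lower in old osteoblasts (Fos 0.765, Fosb 0.746, Jun 0.760) and higher in old joint lining cells (Fos 1.61, Fosb 1.75, Jun 1.72), a group of 54 and 31 cells.

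**Figure D5:**
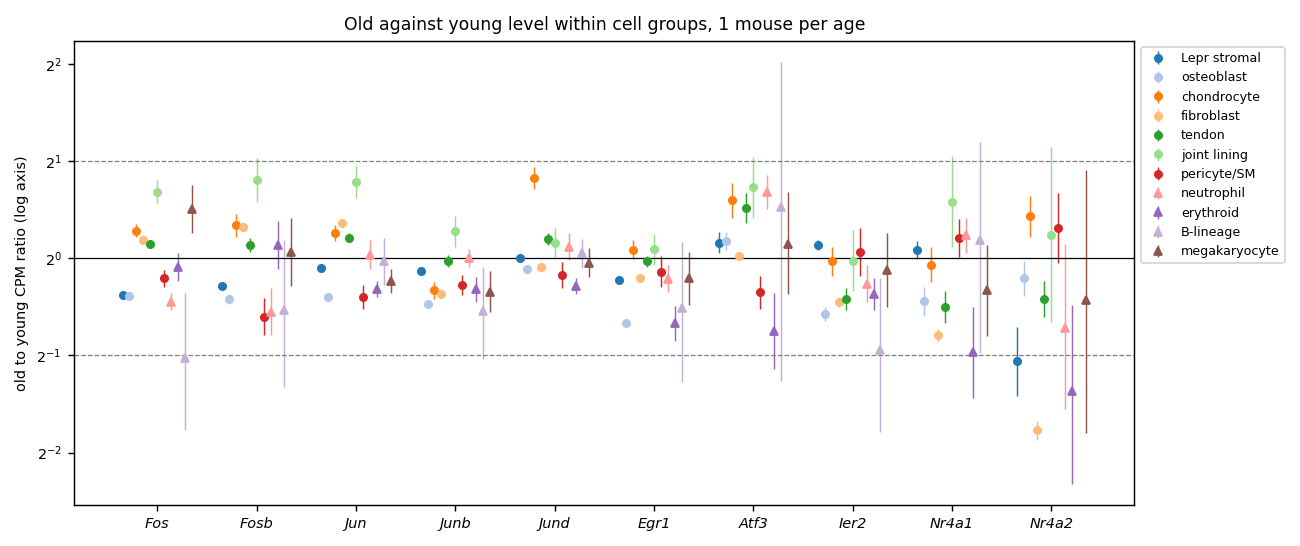
Old to young ratio of CPM (log axis) for each of the 10 genes, with 1 point per cell group, a line at equal levels and lines at 2-fold. Most points lie within 2-fold, and the lowest is Nr4a2 in fibroblasts at 0.293.

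The last comparison was the one the antibody allowed: mesenchymal cells above a CD24 antibody count of 319 in the young and 410 in the old library (CD24+, 517 and 176 cells) against the other mesenchymal cells (CD24-, 6390 and 3454), with sums per mouse tested in edgeR, blocked by mouse, which leaves 1 residual degree of freedom. Nr4a2 was higher in CD24+ cells and Jund lower, and the other 8 members were not called, beside 6.73% of all 14943 genes higher and 6.5% lower. Counts of 1 higher and 1 lower of 10 are near those shares. Nr4a2 stood at 188 CPM in CD24+ and 126 CPM in CD24- cells of the young mouse, and at 101 and 56.5 CPM in the old. Jund stood at 1276 and 1547 CPM in the young and at 1188 and 1484 CPM in the old mouse. The log2 difference was 0.78 (SE 0.10, adjusted p = 3.41e-04) for Nr4a2 and -0.21 (SE 0.06, adjusted p = 0.0305) for Jund. Ier2 (0.24, SE 0.07, adjusted p = 0.0513), Nr4a1 (0.21, SE 0.08, adjusted p = 0.152) and Fos (0.11, SE 0.06, adjusted p = 0.261) did not pass. Both calls were lost without the mouse block and when the antibody count was taken per RNA UMI. Jund alone lost its call with a 10% mitochondrial limit, in thinned cells and with DESeq2, and Ier2 was called in thinned cells (0.33) and with no filter on low counts (0.21). Without TMM factors the share of calls over all genes that were higher went from 50.8% to 37.9%.

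CD24+ cells were a different mix of cell groups, with 234 of the 517 young and 81 of the 176 old ones osteoblasts. With the CD24- cells weighted to the group mix of the CD24+ cells, the log2 difference was 0.56 and 0.26 for Nr4a2 and -0.01 and -0.12 for Jund, where before weighting it was 0.56 and 0.83 for Nr4a2 and -0.28 and -0.32 for Jund. Within fibroblasts, Nr4a2 was 397 CPM in CD24+ and 207 CPM in CD24- cells of the young mouse, but 62.3 and 63.5 CPM in the old. Within osteoblasts it was 76.8 against 56.8 CPM in the young and 80.0 against 49.2 CPM in the old mouse.

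The lists were mixed with CD24, beside 6.73% of all genes called higher and 6.5% lower. Of 18 other immediate-early genes, Ier3 (0.64, SE 0.07, adjusted p = 1.53e-04) and Egr3 (0.46) were higher, and 3 were lower, namely Sik1 (-0.46), Myc (-0.37) and Ier5 (-0.33), with a list median of 0.02 against -0.01 over all genes. Among 13 feedback inhibitors 2 were higher and 4 lower, with Dusp5 at 0.84, Dusp6 at -0.60, Zfp36l1 at -0.59 (SE 0.06, adjusted p = 1.09e-04), Tnfaip3 at -0.45, Zfp36l2 at -0.43 and Gadd45b at 0.29. Of the 13 upstream regulators, 0 were called by edgeR, 0 had an unadjusted p under 0.05 and 0 were called by DESeq2. Of the heat shock genes Hspa1a (0.73, SE 0.07, adjusted p = 2.99e-05) and Hspa1b (0.53), a pair of nearly identical genes that counting may not have separated, were higher and Dnaja1 (-0.23) lower. Secondary response genes were split 3 to 3, with the collagenase gene Mmp13 at 1.43 (SE 0.07, adjusted p = 3.60e-07), Plaur at 0.85, Timp1 at 0.31, Il6 at -0.89, Ccl7 at -0.63 and Cxcl1 at -0.50. Among the genes used as references only Rplp0 was called, at 0.19. These list values were not weighted to the group mix, and Mmp13 was among the 10 leading genes of young osteoblasts.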

How the data were processed

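CITE-seq libraries of sorted bone and marrow cells, read as 1 mouse per age, were analysed. The authors deposited raw counts, whole UMIs per gene and cell, with Cell Ranger 6.1.1 named in the file headers, mm10, Cell Ranger, R 4.0.3 and Seurat 4.0 in the submitters' processing notes and an earlier Cell Ranger release in the study's methods. No normalization had been applied, and barcodes were those called as cells.

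Cells with under 200 genes or over 20% mitochondrial UMIs were left out, as the study did. Each kept cell was placed by marker UMIs: its share of UMIs from each marker list was divided by the median share over cells with at least 4 markers of that list. The list with the highest value, among those with at least 3 markers found, named the cell. The value had to reach 25% of the reference (50% in a stricter alternative), and no other list could exceed 50% of it. Doublets were called with Scrublet (scanpy 1.11.5; 269 young and 57 old, 2.67% and 1.02%), kept in the main results and removed in an alternative. UMIs were summed per mouse and group, or per mouse and CD24 status (Otsu threshold on the log antibody count), and tested with edgeR 4.0.16 in R 4.3.3 (TMM, filterByExpr, quasi-likelihood F test, two-sided, Benjamini-Hochberg over all genes tested) with the mouse as a block, since sums of the same mouse come from 1 animal. DESeq2 1.42.0 was an alternative. Ages were compared as CPM ratios with exact counting intervals and no test. Per-library differences used CPM plus 1. The scripts were tested on simulated data. Correlations were taken on log2 CPM over sums or on cells thinned to 2000 UMIs.

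The members and gene lists were chosen with earlier results of these data known. Genes of the lists were named if among the up to 4 with the largest absolute log2 change past adjusted p 0.05 in their list, and genes outside the lists if among the 8 most like the members' mean. Some genes that this rule names are not reported here. The depth of 81076421 and 66702846 UMIs limits low genes in small groups, and p-values rest on 2 mice.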

Additional observations from a re-analysis of the deposited data

Results flagged for a closer look

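Some differences between cell groups had opposite signs in the young and the old mouse, with counting intervals that excluded equal levels in each. As log2 differences of CPM plus 1 from Lepr stromal cells, in the order young, old, Ier2 was 0.41 and -0.30 in osteoblasts, Jund was -0.35 and 0.48 in chondrocytes, and Jun was -0.13 and 0.19 in tendon cells. In fibroblasts, Fos was -0.09 and 0.47, Fosb -0.52 and 0.08, Junb 0.15 and -0.08, and Ier2 0.24 and -0.35. In joint lining cells Fos was -0.87 and 0.19. Between CD24+ and CD24- mesenchymal cells, Fos was 0.10 and -0.06, Jun 0.04 and -0.18, and Junb 0.06 and -0.10. None of these 11 differences passed the adjusted threshold in the fit over both mice. The values per mouse use total UMIs without TMM factors. With TMM, the fit over both mice gave 0.47 for Jund in chondrocytes, 0.30 for Ier2 in osteoblasts and 0.11 for Fos with CD24. A sign near 0 can therefore depend on the scaling, and the intervals do not cover that. How many opposite signs would remain with TMM was not tested. Whether the 2 mice differed was not tested, since each age was 1 library.

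Barcodes outside the comparisons also held the members. Their summed level was 4357 CPM in young and 4989.8 CPM in old barcodes with over 20% mitochondrial UMIs, below the 11562 and 10608 CPM of mesenchymal cells. It was 6443 and 7847 CPM in cells with markers of several groups, and 12626 and 11207 CPM in cells that met the markers of none.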

How the results depend on the processing

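All 10 members were called higher in mesenchymal than in blood groups, and higher in neutrophils than in other blood groups, under each of the 8 alternatives run. Against Lepr stromal cells 26 pairs were called, and 24 to 29 under the alternatives. Of 2 members called with CD24, 1 was called with a 10% mitochondrial limit, 1 with DESeq2, 0 without the replicate block and 0 with the antibody count per RNA UMI, while 3 were called with no filter on low counts. Over all genes the CD24 calls went from 1005 higher and 972 lower to 83 and 73 without the replicate block, 116 and 67 with the antibody count per RNA UMI, 496 and 389 with DESeq2, 500 and 411 in thinned cells, and 632 and 1034 without TMM factors. The pairing of sums comes from the animal, and leaving out the block changed no other count of member calls by over 1.5 times. Pairs at least 2-fold lower in the old mouse went from 4 to 1 with doublets removed, and Fos in B-lineage cells reversed to a ratio of 1.01 in thinned cells. The cause was not tested. Without mitochondrial and ribosomal UMIs in the denominator the mesenchymal sum was 13615 CPM (young) and 12454 CPM (old) in place of 11562 and 10608. The share of Lepr stromal cells with a Fos UMI fell to 52.2% and 48.0% from 60.1% and 63.8% by thinning. Thinned to 2000 UMIs, 10223 genes were tested in place of 13361, with 2830 higher and 1569 lower in mesenchymal groups in place of 4551 and 3487. The same thinning gave 1394 and 1454 in osteoblasts (2347 and 2286 before), 928 and 959 in chondrocytes (2033 and 1896), 1273 and 1232 in tendon cells (2246 and 2105), 530 and 683 in joint lining cells (1624 and 1785), 922 and 1160 in pericytes or smooth muscle cells (1717 and 1925), 3162 and 1516 in neutrophils (4881 and 2884), and 2956 and 1893 for mesenchymal against blood groups without neutrophils (4884 and 3834). Without TMM factors the counts were 1684 and 3597 in osteoblasts, 1442 and 3396 in chondrocytes and 3391 and 4619 in neutrophils. Leaving out 1 mouse gives a value with no test, and all 10 differences from blood, all 10 of neutrophils, both with CD24 and all 26 differences from Lepr stromal cells kept their direction in either mouse. These calls were selected in fits of the same 2 mice, so the kept direction largely follows from that selection and is a description.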
